A study of Mus musculus with 9 samples.

Results

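The nuclear genes for the subunits of respiratory complexes II to V were compared between hindlimb skeletal muscle of SMA mice and wild type (WT) mice. The genes were taken by name. They were Sdha, Sdhb, Sdhc, Sdhd, Cyc1, Cycs and every gene whose symbol begins with Uqcr, Cox4i, Cox5, Cox6, Cox7, Cox8 or Atp5, with pseudogenes marked -ps left out. This gave 49 of the 32594 genes in the deposited count table, of which 4 belonged to complex II, 9 to complex III, 1 was cytochrome c, 18 belonged to complex IV and 15 to complex V. The other 2, Atp5s and Atp5sl, carry an Atp5 name but are not structural subunits of the enzyme. RNA sequencing covered 4 libraries labelled as SMN delta 7 mice, a model of spinal muscular atrophy called SMA here, and 5 libraries labelled as wild type, all on the FVB/N strain background. The SMN delta 7 mouse is generally described as lacking its own Smn1 gene in every cell and carrying human SMN transgenes, so that muscle is short of SMN protein along with the motor neurons. The labels give neither the alleles of each animal nor age or sex, and do not say whether a library is 1 animal or a pool. They also do not say that the libraries came from separate animals, so p-values measure the spread between these libraries.

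Complex II (succinate dehydrogenase) passes electrons from succinate to ubiquinone, complex III passes them on to cytochrome c, and complex IV (cytochrome c oxidase) hands them to oxygen. Complex V, the ATP synthase, uses the proton gradient that complexes III and IV help to build. All subunits of complex II are encoded in the nucleus, whereas the other complexes also hold subunits made from mitochondrial DNA. Several subunits of complex IV have a form typical of striated muscle, encoded by Cox6a2, Cox7a1 and Cox8b in mice, and a form found in most tissues, encoded by Cox6a1, Cox7a2 and Cox8a. In rodents the muscle forms become the main ones in heart and skeletal muscle around birth and after it.

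Libraries held 30746646 to 35087722 counts in SMA and 24917665 to 34094645 counts in WT. Smn1 read 1.80, 2.24, 1.40 and 2.72 CPM (counts relative to the scaled size of the library) in the SMA libraries, against 13.1, 13.5, 13.8, 11.1 and 13.3 CPM in the WT libraries, and was thus lower in every SMA library. The 6 markers listed for skeletal muscle were abundant in all libraries. Their summed level was 67600 to 80400 CPM in SMA and 128000 to 180000 CPM in WT, and 5 of the 6 markers (Acta1, Ckm, Myh4, Tnnt3 and Mylpf) fell. The other, Des, averaged 2300 CPM in SMA and 2230 CPM in WT and did not pass the test, so the fall of the sum was not shared by every marker. The 10 most abundant genes held 17.25 to 19.47% of all counts in SMA and 21.73 to 26.24% in WT. SMA library 3 stood apart from the other SMA libraries in many genes below. Counts of Y-linked genes exceeded those of Xist in 1 of 4 SMA libraries and in 4 of 5 WT libraries, so the sexes were not balanced. In whole muscle, fewer cells of a type and less RNA per cell cannot be told apart.

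Of the 49 genes, 47 had enough counts to be tested. Cox8c, a testis form of subunit 8, had 0 counts in every library, which at 3 counts allows 0.0799 to 0.132 CPM. Cox7b2, a testis form of subunit 7b, had 2 counts in SMA library 3, 1 count in WT library 4 and 0 elsewhere. The tested genes were fitted with all 15873 tested genes of the table, and a gene was said to rise or fall where its edgeR adjusted p was under 0.05.

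Of the 47 tested genes, 18 fell in SMA muscle, 3 rose and 26 did not pass the test, while with libraries scaled to their total counts 3 fell and 6 rose. Among all tested genes 27.2% fell and 27.7% rose, which together made 54.9%. In this fit the 38.3% of the subunit genes that fell thus lay above the share of all genes, and the 6.38% that rose lay below it. The 44.7% of subunit genes called in either direction lay below the share of all genes. The subunit genes had a median log2 fold change (SMA over WT) of -0.232, against 0.00596 over all tested genes, and 40 of the 47 lay below zero. In 5 genes (Cycs, Cox7a1, Sdha, Atp5e and Atp5k) all SMA libraries lay below all WT libraries, and in 3 (Cox8b, Cox6b2 and Atp5sl) all lay above. These 8 of 47 genes without overlap lay below the 44.2% of all tested genes. The 5 of 47 lay below the 21.7% of all tested genes with SMA below WT, and the 3 of 47 below the 22.6% with SMA above. The excess of genes that fell was not kept in every fit. With scaling to total counts the 3 of 47 that fell lay below the 13.6% of all tested genes. Without SMA library 1, with a term for the replicate number and with a term for Y-linked counts, the number that fell lay near the share of all tested genes.

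The calls and the place of zero depended on how libraries were scaled. With libraries scaled to their total counts in place of trimmed-mean factors (TMM, edgeR's default), 3 subunit genes fell (Cox7a1, Cycs and Sdha) and 6 rose (Atp5b, Atp5sl, Cox4i1, Cox6b2, Cox8a and Cox8b), while the median over all tested genes moved to 0.24 and 13.6% of all genes fell and 40.2% rose. The median of the subunit genes was then 0.012, so that their median minus that of all genes was -0.228, against -0.238 under TMM, and the 18 genes that fell under TMM had log2 fold changes from -0.594 to -0.001. Without SMA library 1 the number that fell was 11. It was 27 without SMA library 3. With a term for whether Y-linked counts exceeded Xist it was 10, and in each of these 3 fits 3 genes rose. The 8 genes that lost their call with that term were Atp5c1, Atp5f1, Cox7a2, Cyc1, Sdhb, Sdhc, Uqcr10 and Uqcrh, at edgeR adjusted p of 0.0663 to 0.158. Of the 21 called genes 14 kept their call without each library in turn and 7 lost it in at least 1 omission. Of the others 10 gained a call in at least 1 omission. Without SMA library 3 these were Atp5d, Atp5g1, Atp5g3, Atp5h, Atp5o, Cox6a1, Cox6c, Cox7b and Uqcrb.

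**Figure D1:**
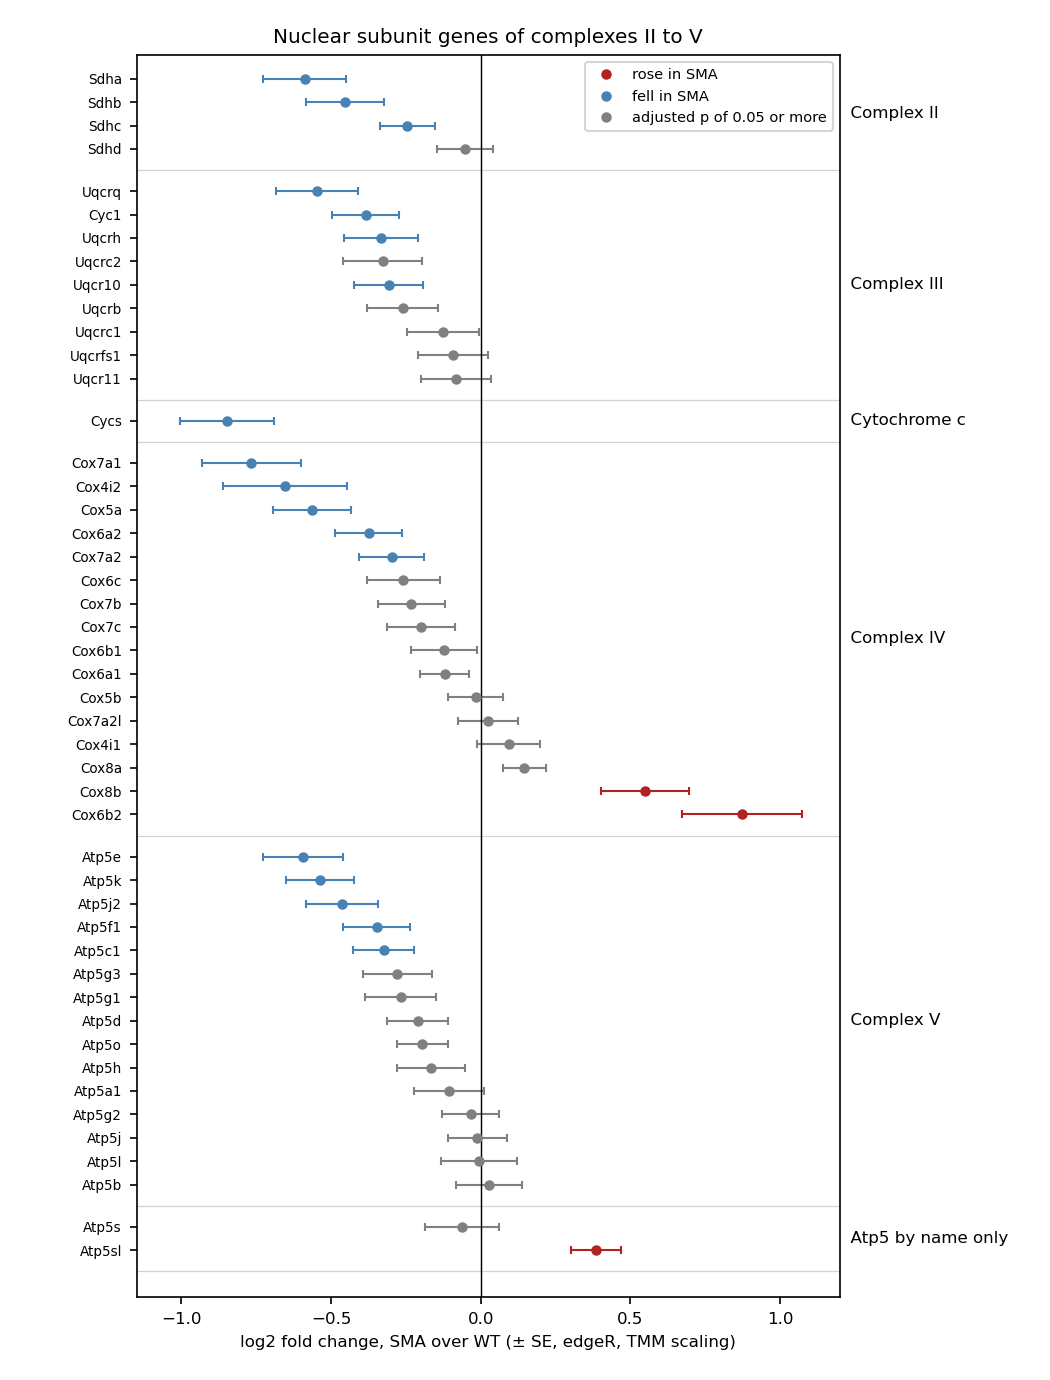
Log2 fold change of each tested subunit gene, SMA over WT, with bars of 1 standard error from the edgeR fit (4 SMA and 5 WT libraries, TMM scaling), ordered within each complex. Of 47 genes 18 fell and 3 rose, and with scaling to total counts 3 fell and 6 rose.

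As a share of all counts, which amounts to scaling to total counts, the subunit genes together took 2.285, 2.371, 2.857 and 2.335% in the SMA libraries, against 2.399, 2.297, 2.221, 2.513 and 2.457% in the WT libraries. SMA library 3 was the highest of all 9, and the other SMA libraries lay within the WT range. The means were 2.46% ± 0.266 in SMA and 2.38% ± 0.118 in WT (SD, n = 4 and 5). Such a share also depends on what the most abundant genes take. The 10 most abundant held 17.25 to 19.47% of all counts in SMA and 21.73 to 26.24% in WT, which leaves more for all other genes in SMA. The mean log2 CPM over the tested genes was 7.869, 7.886, 8.182 and 7.869 in the SMA libraries, against 8.165, 8.012, 8.061, 8.242 and 8.320 in the WT libraries. On this scale 3 SMA libraries lay below every WT library and SMA library 3 lay among the WT libraries.

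**Figure D2:**
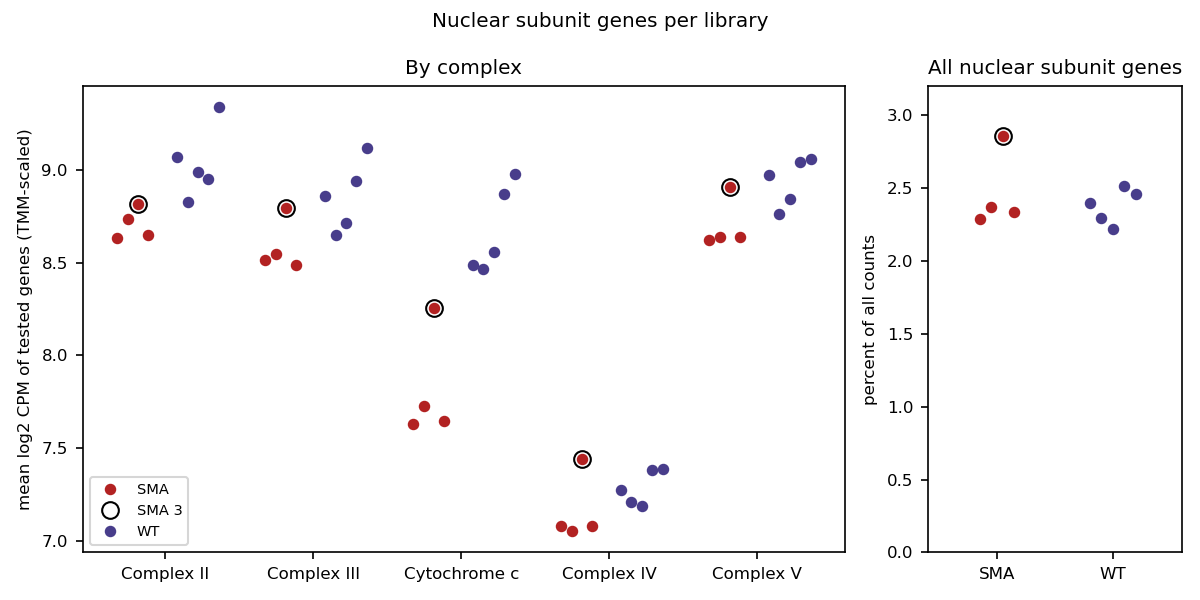
Left, mean log2 CPM (TMM-scaled) of the tested genes of each complex in each library. Right, percent of all counts taken by the subunit genes in each library, 2.285 to 2.857% in SMA and 2.221 to 2.513% in WT. On the left the SMA libraries other than library 3, which is ringed, lie below every WT library in each complex, whereas with scaling to total counts the median log2 fold change of the genes is 0.012. SMA library 3 is the highest SMA library in every column. On the left it lies below every WT library only for complex II and cytochrome c.

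Both catalytic subunits of complex II (Sdha and Sdhb) and 1 of its membrane anchors (Sdhc) fell, while with scaling to total counts only Sdha fell. The other anchor, Sdhd, did not pass the test. The 75% that fell under TMM, in a set of 4 genes, compare with 27.2% of all tested genes. With scaling to total counts 13.6% of all tested genes fell. Sdha (chr13:74322254-74350280 on the minus strand of GRCm38), the flavoprotein that oxidises succinate and so also serves the citric acid cycle, had 508, 566, 518 and 506 CPM in the SMA libraries, against 838, 635, 771, 657 and 1040 CPM in the WT libraries. All SMA libraries lay below all WT libraries. The means were 524 ± 28.1 CPM in SMA and 788 ± 163 CPM in WT (SD, n = 4 and 5), a fold of 0.665 (log2 fold change -0.59 ± 0.14, edgeR adjusted p = 0.00351). Sdhb, the iron-sulphur subunit that takes the electrons on, had 354, 381, 471 and 350.5 CPM in the SMA libraries, against 542, 456, 486, 507 and 674 CPM in the WT libraries. SMA library 3 lay within the WT range and the other SMA libraries lay below it (log2 fold change -0.45 ± 0.13, edgeR adjusted p = 0.0114), and the call was lost with the term for Y-linked counts (edgeR adjusted p = 0.0663). Sdhd, one of the cytochrome b anchors in the membrane, had 448, 475, 486 and 469 CPM in the SMA libraries, against 476, 434, 475, 479 and 570.2 CPM in the WT libraries. The groups overlapped (log2 fold change -0.053 ± 0.093, edgeR adjusted p = 0.653). Sdhc, the other anchor, had a log2 fold change of -0.25 and lost its call without any one of SMA libraries 1, 2 and 4 or WT libraries 1, 3, 4 and 5, with edgeR adjusted p up to 0.103 and log2 fold changes from -0.292 to -0.193.

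In complex III, 4 of 9 genes fell, none rose and the log2 fold changes of all 9 lay below zero, from -0.547 to -0.082, while with scaling to total counts none of the 9 was called. The 44.4% that fell compare with 27.2% of all tested genes. Uqcrq, a small subunit near the ubiquinone site, had 272, 267, 368 and 248 CPM in the SMA libraries, against 402, 371, 368, 482 and 488 CPM in the WT libraries. SMA library 3 overlapped the WT range by a narrow margin and the other SMA libraries lay below it (log2 fold change -0.55 ± 0.14, edgeR adjusted p = 0.00493). Cyc1, the haem-bearing cytochrome c1 that delivers electrons to cytochrome c, had 571, 607, 676 and 552 CPM in the SMA libraries, against 811, 676, 706, 802 and 929.7 CPM in the WT libraries. Again SMA library 3 alone reached the WT range (log2 fold change -0.39 ± 0.11, edgeR adjusted p = 0.0117), and the call was lost with the term for Y-linked counts (edgeR adjusted p = 0.0876). Uqcrh, the hinge protein, had a log2 fold change of -0.33 and Uqcr10, another small subunit, one of -0.31. Both lost their call without SMA library 1, 2 or 4 and without WT library 4 or 5, and Uqcrh also without WT library 1, at edgeR adjusted p of up to 0.116 for Uqcrh and 0.107 for Uqcr10. Uqcr11, the small subunit with the highest adjusted p, had 244, 244, 311 and 228 CPM in the SMA libraries, against 277, 241, 237, 309 and 294 CPM in the WT libraries, and the groups overlapped (log2 fold change -0.082 ± 0.12, edgeR adjusted p = 0.574). The core proteins Uqcrc1 and Uqcrc2, the Rieske iron-sulphur protein Uqcrfs1 and the small subunit Uqcrb did not pass the test, with log2 fold changes of -0.13, -0.33, -0.092 and -0.26. Uqcrc2 missed the threshold narrowly, at an edgeR adjusted p of 0.0534, and passed without WT library 2, at 0.0171.

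Cycs (chr6:50562563-50566538, minus strand), the somatic cytochrome c that ferries electrons between complexes III and IV and also takes part in cell death, had the lowest log2 fold change of the 47 genes. It had 198, 212, 306 and 200.3 CPM in the SMA libraries, against 359, 354, 376, 467 and 504 CPM in the WT libraries. The SMA libraries all lay below the WT libraries, with SMA library 3 nearest to them. The means were 229 ± 51.8 CPM in SMA and 412 ± 68.9 CPM in WT (SD, n = 4 and 5), a fold of 0.556 (log2 fold change -0.85 ± 0.16, edgeR adjusted p = 0.000733). Its fall held with scaling to total counts, at a log2 fold change of -0.594 and an edgeR adjusted p of 0.00711, and without each library in turn, from -1.019 to -0.765. In the annotation 26.1% of its 75-base runs also occur in transcripts of 5 other genes, all with names that begin with Gm. How the authors' counting shared such reads is not given in the sources used here.

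Complex IV held genes that fell and genes that rose. Of its 16 tested genes 5 fell (Cox7a1, Cox4i2, Cox5a, Cox6a2 and Cox7a2), 2 rose (Cox8b and Cox6b2) and 9 did not pass the test, and with scaling to total counts 1 fell and 4 rose. The 31.2% that fell lay near the 27.2% of all tested genes, and the 12.5% that rose lay below their 27.7%. Among the genes without a tissue form, Cox5a, a subunit on the matrix side, had a log2 fold change of -0.56 (edgeR adjusted p = 0.00326), and Cox5b, another matrix-side subunit, was the gene of the complex with the highest adjusted p. Cox5b had 153, 156, 179 and 145 CPM in the SMA libraries, against 159.9, 142, 152, 175 and 172 CPM in the WT libraries. The groups overlapped throughout (log2 fold change -0.017 ± 0.091, edgeR adjusted p = 0.885). Cox6c and Cox7c, small membrane subunits, had log2 fold changes of -0.26 and -0.20 and did not pass. Cox7a2l, a relative of subunit 7a that joins complexes III and IV into supercomplexes, had 150, 149.8, 191 and 159 CPM in the SMA libraries, against 161, 148, 142, 174 and 174 CPM in the WT libraries, again with overlap (log2 fold change 0.024 ± 0.1, edgeR adjusted p = 0.853).

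The 3 muscle forms did not move together. Cox7a1 and Cox6a2 fell, Cox8b rose, and of their ubiquitous partners Cox6a1, Cox7a2 and Cox8a only Cox7a2 fell. The other ubiquitous forms, Cox4i1, Cox6b1 and Cox7b, have a lung or testis form as partner and did not pass. Of all 6 ubiquitous forms 16.7% fell, against 27.2% of all tested genes. With scaling to total counts Cox7a1 still fell, Cox6a2 and Cox7a2 were not called, and Cox4i1, Cox8a and Cox8b rose. Cox7a1 (chr7:30184144-30186078, plus strand), the muscle form of subunit 7a, had 138, 158, 237 and 147 CPM in the SMA libraries, against 267, 261, 244, 328 and 345 CPM in the WT libraries. The SMA libraries all lay below the WT libraries, with SMA library 3 nearest to them. The means were 169.8 ± 45.4 CPM in SMA and 289 ± 44.6 CPM in WT (SD, n = 4 and 5), a fold of 0.588 (log2 fold change -0.77 ± 0.17, edgeR adjusted p = 0.00201). Cox7a2, its partner in most tissues, had 275, 268, 346 and 298 CPM in the SMA libraries, against 355, 328, 325, 409.8 and 408 CPM in the WT libraries. SMA library 3 lay within the WT range (log2 fold change -0.30 ± 0.11, edgeR adjusted p = 0.0362), and the call was lost without any one of SMA libraries 1, 2 and 4 or WT libraries 1, 4 and 5, at an edgeR adjusted p of up to 0.11.

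Cox8b (chr7:140898945-140900446, minus strand), the muscle form of subunit 8, had 357, 349.7, 495 and 348 CPM in the SMA libraries, against 246, 239, 211, 311 and 317 CPM in the WT libraries. All SMA libraries lay above all WT libraries, and SMA library 3 was far above the rest. The means were 388 ± 71.9 CPM in SMA and 265 ± 46.7 CPM in WT (SD, n = 4 and 5), a fold of 1.46 (log2 fold change 0.55 ± 0.15, edgeR adjusted p = 0.00731). Without SMA library 3 the log2 fold change was 0.41 and the edgeR adjusted p 0.019. Cox8a, its partner, had 129.8, 117, 132 and 131 CPM in the SMA libraries, against 108, 121, 118, 118 and 111 CPM in the WT libraries. SMA library 2 lay within the WT range and the other SMA libraries lay above it (log2 fold change 0.14 ± 0.072, edgeR adjusted p = 0.108).

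Cox6a2, the muscle form of subunit 6a, had 654, 603, 779 and 584 CPM in the SMA libraries, against 844, 736, 831, 918 and 920.2 CPM in the WT libraries. SMA library 3 lay within the WT range and the other SMA libraries below it (log2 fold change -0.38 ± 0.11, edgeR adjusted p = 0.0127). Cox6a1, its partner, had 55.9, 53.0, 67.3 and 54.6 CPM in the SMA libraries, against 61.3, 64.9, 60.8, 60.5 and 66.2 CPM in the WT libraries. SMA libraries 1, 2 and 4 lay below every WT library, SMA library 3 lay above every WT library, and the gene did not pass (log2 fold change -0.12 ± 0.082, edgeR adjusted p = 0.23). Without SMA library 3 it did, with a log2 fold change of -0.204 and an edgeR adjusted p of 0.0214.

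**Figure D3:**
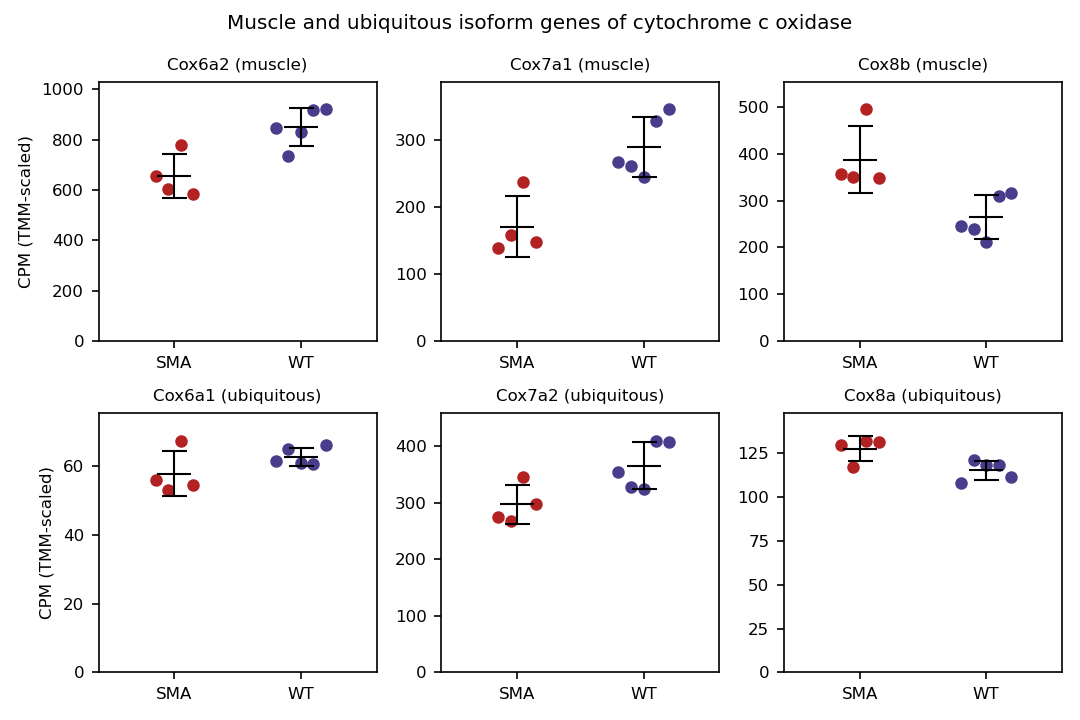
TMM-scaled CPM of the muscle forms (top) and the ubiquitous forms (bottom) of subunits 6a, 7a and 8 of cytochrome c oxidase in each library, with the mean and 1 SD (n = 4 SMA and 5 WT). Cox6a2 and Cox7a1 lie lower in SMA and Cox8b higher, while with scaling to total counts Cox6a2 is not called.

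Other paired genes of complex IV have a form typical of a tissue other than muscle. Cox4i2, a form of subunit 4 best known from lung and from low oxygen, had 2.95, 2.88, 5.51 and 2.58 CPM in the SMA libraries, against 6.11, 5.81, 5.26, 5.35 and 4.89 CPM in the WT libraries. SMA library 3 lay within the WT range and the other SMA libraries far below it (log2 fold change -0.66 ± 0.21, edgeR adjusted p = 0.0179). The call was lost without SMA library 1, 2 or 4, with an edgeR adjusted p of up to 0.0565, and without SMA library 3 the log2 fold change was -0.967. Its ubiquitous partner Cox4i1 had 869, 854, 1070 and 869.9 CPM in the SMA libraries, against 884, 755, 807, 884 and 963 CPM in the WT libraries, with overlap (log2 fold change 0.093 ± 0.11, edgeR adjusted p = 0.478).

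Cox6b2, known as the testis form of subunit 6b, was scarce, with 2.52, 2.16, 2.49 and 2.25 CPM in the SMA libraries, against 1.36, 1.71, 1.33, 1.15 and 0.851 CPM in the WT libraries. The SMA libraries all lay above the WT libraries (log2 fold change 0.87 ± 0.2, edgeR adjusted p = 0.00297). Cox6b1, its partner, had 464, 462, 598 and 459 CPM in the SMA libraries, against 532, 487, 498, 594 and 589.9 CPM in the WT libraries, with overlap (log2 fold change -0.12 ± 0.11, edgeR adjusted p = 0.36). Cox7b, the ubiquitous subunit 7b whose testis form was not detectable at this depth, had 392, 401, 484 and 385 CPM in the SMA libraries, against 439.7, 444, 447, 546 and 563 CPM in the WT libraries. SMA library 3 again stood above the other SMA libraries (log2 fold change -0.23 ± 0.11, edgeR adjusted p = 0.0987).

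The balance between the forms of a subunit was also taken inside each library, as the log2 ratio of the counts of both genes, which no scaling between libraries can change. Ratios were computed for 7 pairs, and each was tested two-sided by exact permutation (126 ways to divide the libraries), with adjustment over those 7, where the smallest p the design allows is 0.00794. The log2 ratio of Cox7a1 to Cox7a2 was -1.0, -0.76, -0.55 and -1.02 in the SMA libraries, against -0.41, -0.33, -0.41, -0.32 and -0.24 in the WT libraries. All SMA libraries lay below all WT libraries, with a difference of -0.49 (exact permutation p = 0.00794, adjusted p = 0.0278). Of the counts of the pair Cox7a1 thus took 36% ± 3.59 in SMA, against 44.1% ± 1.22 in WT (SD, n = 4 and 5). In the exact tests without 1 library the adjusted p was 0.04 to 0.075, so the call was lost in 7 of the 9 omissions, in designs whose smallest p is larger.

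The log2 ratio of Cox6a2 to Cox6a1 was 3.55, 3.51, 3.53 and 3.42 in the SMA libraries, against 3.78, 3.50, 3.77, 3.92 and 3.80 in the WT libraries. WT library 2 lay among the SMA libraries and the other WT libraries lay above them, a difference of -0.25 that did not pass after adjustment (exact permutation p = 0.0397, adjusted p = 0.0556). The log2 ratio of Cox8b to Cox8a was 1.46, 1.58, 1.91 and 1.41 in the SMA libraries, against 1.19, 0.98, 0.84, 1.39 and 1.51 in the WT libraries. SMA library 3 was the highest and the groups overlapped, with a difference of 0.41 (exact permutation p = 0.0635, adjusted p = 0.0741). Without WT library 5 the difference was 0.487, at an exact adjusted p of 0.04.

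For the remaining pairs of complex IV, Cox4i2 over Cox4i1 had log2 ratios of -8.20, -8.21, -7.60 and -8.40 in the SMA libraries, against -7.17, -7.02, -7.26, -7.37 and -7.62 in the WT libraries. SMA library 3 just reached WT library 5, and the difference was -0.81 (exact permutation p = 0.0159, adjusted p = 0.0278). Cox6b2 over Cox6b1 had log2 ratios of -7.53, -7.74, -7.91 and -7.67 in the SMA libraries, against -8.61, -8.15, -8.54, -9.01 and -9.44 in the WT libraries. The SMA libraries all lay above the WT libraries, with a difference of 1.04 (exact permutation p = 0.0159, adjusted p = 0.0278). Of the counts of the pair Cox6b2 made up 0.476% ± 0.052 in SMA, against 0.242% ± 0.0781 in WT (SD, n = 4 and 5). Without 1 library the exact adjusted p reached 0.1 for the first of these pairs and 0.075 for the second, and for each of them 7 of the 9 omissions lost the call.

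**Figure D4:**
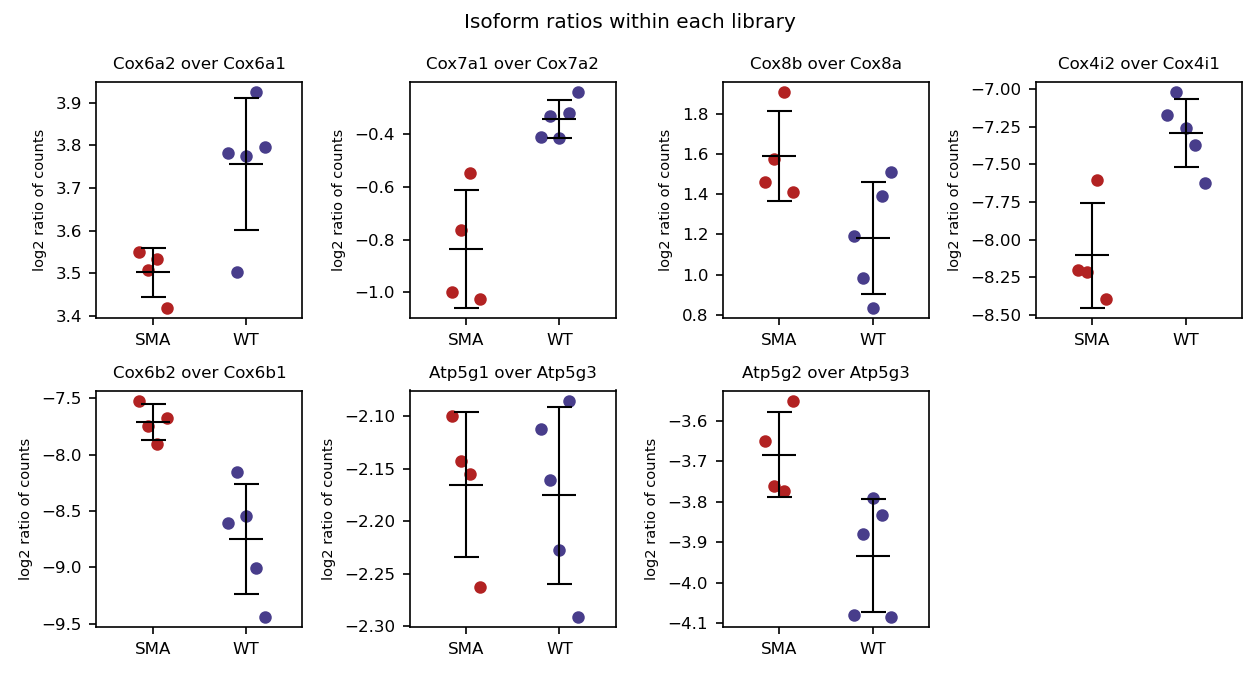
Log2 ratio of the counts of paired genes in each library, with the mean and 1 SD (n = 4 SMA and 5 WT), on an axis of its own for each pair. The groups do not overlap for Cox7a1 over Cox7a2, Cox6b2 over Cox6b1 and Atp5g2 over Atp5g3.

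Levels can be set against each other between genes only per transcript length, here as CPM per kb of the principal transcript in GENCODE. On that scale Cox6a2 averaged 964 ± 129 CPM per kb in SMA and 1250 ± 111 in WT, and Cox6a1 averaged 101 ± 11.4 CPM per kb in SMA and 110 ± 4.60 in WT (SD, n = 4 and 5), so the muscle form led its partner in both groups. Cox7a1 averaged 432 ± 116 CPM per kb in SMA and 735 ± 113 in WT, and Cox7a2 451 ± 53.5 CPM per kb in SMA and 554 ± 63.2 in WT. Their ranges overlapped in SMA, and in WT they met only at the edge, with Cox7a1 at 621 to 878 and Cox7a2 at 494 to 622 CPM per kb. Cox8b averaged 1080 ± 200 CPM per kb in SMA and 736 ± 130 in WT, and Cox8a 232 ± 12.6 CPM per kb in SMA and 210 ± 9.90 in WT, again with the muscle form ahead in both groups. The highest means of all were those of Atp5b with 2120 ± 96.4 CPM per kb in SMA and 2080 ± 243 in WT, and the lowest among tested genes was Cox6b2 with 4.25 ± 0.323 CPM per kb in SMA and 2.32 ± 0.568 in WT.

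Sequence before the start of 4 of these genes is shown, because Cox7a1 and Cox8b are the muscle forms that moved in opposite directions, Cox6a1 is a ubiquitous form that did not pass, and Sdha is a catalytic gene that fell. The 250 bases before the RefSeq start are printed on the strand of the gene (GRCm38.p6), at chr7:30183921-30184170 on the plus strand for Cox7a1 and at chr7:140900447-140900696, chr5:115348959-115349208 and chr13:74350241-74350490 on the minus strand for Cox8b, Cox6a1 and Sdha. Capitals mark matches on either strand to the ETS motif CCGGAAG bound by GABP, the NRF1 motif (GCGCA and GCGC with 1 base between them), the ERR half-site AAGGTCA, the E-box CAGCTG of muscle regulators and the MEF2 motif.
Cox7a1: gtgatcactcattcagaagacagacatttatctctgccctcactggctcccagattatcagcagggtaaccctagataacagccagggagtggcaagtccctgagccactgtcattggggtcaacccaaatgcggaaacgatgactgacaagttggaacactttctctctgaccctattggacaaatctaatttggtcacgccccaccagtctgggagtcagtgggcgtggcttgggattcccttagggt
Cox8b: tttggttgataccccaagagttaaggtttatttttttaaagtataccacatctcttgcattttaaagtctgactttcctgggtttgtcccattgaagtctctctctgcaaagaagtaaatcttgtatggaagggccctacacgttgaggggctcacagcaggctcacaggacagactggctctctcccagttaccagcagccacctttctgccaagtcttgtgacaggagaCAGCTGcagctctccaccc
Cox6a1: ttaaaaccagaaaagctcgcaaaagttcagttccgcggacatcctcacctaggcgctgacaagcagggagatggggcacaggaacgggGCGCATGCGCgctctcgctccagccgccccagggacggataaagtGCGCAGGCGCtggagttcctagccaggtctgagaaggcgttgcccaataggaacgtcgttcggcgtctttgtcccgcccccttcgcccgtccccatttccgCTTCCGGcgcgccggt
Sdha: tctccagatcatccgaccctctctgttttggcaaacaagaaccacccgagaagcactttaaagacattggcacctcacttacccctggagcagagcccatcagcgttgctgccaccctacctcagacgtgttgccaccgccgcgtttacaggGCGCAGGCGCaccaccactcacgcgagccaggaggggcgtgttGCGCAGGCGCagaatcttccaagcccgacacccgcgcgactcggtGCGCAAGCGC
Cox7a1 held none of these motifs in this window, Cox8b held 1 E-box at 19 bases before the start, Cox6a1 held NRF1 matches at 162 and 117 bases and an ETS match at 16 bases, and Sdha held NRF1 matches at 98, 55 and 10 bases before the start.

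RefSeq promoters were matched for 38 of the 49 genes and for 27025 genes in all, which include genes not tested here. The 11 subunit genes without a match are missing from the counts below. Of those that fell these were Cox4i2, Cox6a2, Cyc1, Sdhc and Uqcrq. The ETS motif was present in 9 of the 38 (23.7%), against 7.83% of all promoters, and the NRF1 motif in 7 (18.4%), against 4.23%. Of the 9 genes with the ETS motif 2 fell, against 11 of the 29 without it, and of the 7 with the NRF1 motif 3 fell, against 10 of the 31 without it. The ERR half-site was present in 2 of the 38 (5.26%), against 4.7% of all promoters, the E-box in 2 (5.26%), against 14.7%, and the MEF2 motif in 0, against 3.42%. A match is a string of letters in this window and was not tested as a binding site.

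In complex V, 5 of 15 genes fell, none rose and 14 of 15 log2 fold changes lay below zero, while with scaling to total counts none fell and Atp5b rose. The 33.3% that fell lay near the 27.2% of all tested genes. Atp5k, subunit e of the membrane part where synthase dimers meet, had 178, 177, 236 and 198 CPM in the SMA libraries, against 265, 257, 267, 325 and 317 CPM in the WT libraries. All SMA libraries lay below all WT libraries (log2 fold change -0.54 ± 0.11, edgeR adjusted p = 0.00173). Atp5e, the epsilon subunit of the central stalk, had 274, 264, 377 and 293 CPM in the SMA libraries, against 516, 391, 382, 508 and 481 CPM in the WT libraries. These groups did not overlap either, with SMA library 3 just below the lowest WT library (log2 fold change -0.59 ± 0.13, edgeR adjusted p = 0.00269). Atp5j2, subunit f of the membrane part, Atp5f1, subunit b of the peripheral stalk, and Atp5c1, the gamma subunit of the rotating stalk, fell with log2 fold changes of -0.46, -0.35 and -0.32. Atp5f1 lost its call without SMA library 1, 2 or 4, and Atp5c1 without SMA library 1, at edgeR adjusted p of up to 0.0637 and 0.0571. Atp5l, subunit g, had the highest adjusted p of the complex, with 89.1, 88.5, 125 and 89.0 CPM in the SMA libraries, against 87.0, 87.8, 94.2, 118 and 105 CPM in the WT libraries. SMA library 3 stood above every WT library and the other SMA libraries lay at the low end of the WT range (log2 fold change -0.005 ± 0.13, edgeR adjusted p = 0.975), and 63.4% of the 75-base runs of Atp5l also occur in other annotated transcripts.

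The subunits of the catalytic head, Atp5a1 and Atp5b, had log2 fold changes of -0.11 and 0.028 and did not pass. The delta subunit Atp5d, the peripheral stalk genes Atp5h, Atp5j and Atp5o, and all genes of the c-ring did not pass either. Of the genes that carry the name alone, Atp5sl, renamed Dmac2 and known for a role in building complex I, rose with a log2 fold change of 0.39 (edgeR adjusted p = 0.00199) and no overlap between the groups. Atp5s, coupling factor B, had a log2 fold change of -0.063 and was not called.

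The c-ring, which turns as protons pass, is made of 1 protein encoded by Atp5g1, Atp5g2 and Atp5g3 with different leader peptides. Atp5g3 had 897, 908, 1183 and 893 CPM in the SMA libraries, against 1222, 1028, 1105, 1268 and 1260 CPM in the WT libraries (log2 fold change -0.28 ± 0.12, edgeR adjusted p = 0.0581). Atp5g1 had 209, 206, 266 and 186 CPM in the SMA libraries, against 283, 229.9, 236, 299 and 258 CPM in the WT libraries (log2 fold change -0.27 ± 0.12, edgeR adjusted p = 0.0735). Both overlapped between the groups, and both passed the test without SMA library 3 (edgeR adjusted p = 0.00711 and 0.00877) and without WT library 2. Atp5g2 had 71.5, 66.9, 86.5 and 76.1 CPM in the SMA libraries, against 72.2, 69.8, 79.9, 89.0 and 74.3 CPM in the WT libraries, with overlap (log2 fold change -0.034 ± 0.096, edgeR adjusted p = 0.785).

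Within the libraries, the log2 ratio of Atp5g2 to Atp5g3 was -3.65, -3.76, -3.77 and -3.55 in the SMA libraries, against -4.08, -3.88, -3.79, -3.83 and -4.08 in the WT libraries. The SMA libraries all lay above the WT libraries by a narrow margin, with a difference of 0.25 (exact permutation p = 0.0159, adjusted p = 0.0278). Without 1 library the difference was 0.205 to 0.286 and the exact adjusted p 0.04 to 0.075, so that 8 of the 9 omissions lost the call. Atp5g1 over Atp5g3 had log2 ratios of -2.10, -2.14, -2.15 and -2.26 in the SMA libraries, against -2.11, -2.16, -2.23, -2.09 and -2.29 in the WT libraries. The groups overlapped, with a difference of 0.011 (exact permutation p = 0.841, adjusted p = 0.841). In the annotation 35.8% of the 75-base runs of Atp5g2 and 7.21% of those of Atp5g1 occur in other transcripts, so their counts depend on how such reads were treated.

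Each gene was also set against the mean of all 47 in its own library, which removes the scaling. On this log2 scale 12 genes lay lower and 7 higher in SMA with no overlap between the groups, and 28 overlapped. A share over all tested genes was not computed on this scale. Under TMM the mean itself was lower in SMA (7.951, against 8.16 in WT), so a gene with little change comes out higher here. Among the 7 higher genes, Cox5b, Atp5j and Cox7a2l had log2 fold changes of -0.017, -0.011 and 0.024 in the fit. The lowest differences (SMA minus WT) were -0.648 for Cycs and -0.579 for Cox7a1, followed by -0.514 for Cox4i2, whose groups overlapped. The highest were 1.118 for Cox6b2, 0.759 for Cox8b and 0.59 for Atp5sl. Cox6a2 lay between 1.322 and 1.485 in SMA and between 1.512 and 1.639 in WT on this scale. Cox4i1 lay between 1.853 and 1.895 in SMA and between 1.546 and 1.622 in WT, and Sdha, at a difference of -0.357, overlapped. These values describe how the genes differed among themselves and were not tested.

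The proteins that build complexes II to V were looked at beside their subunits. Of 40 listed assembly factors, with the ATP synthase inhibitor Atpif1, 38 were tested. In SMA 22 fell (57.9%), 1 rose (Surf1) and 15 did not pass, against 27.2% of all tested genes that fell and 27.7% that rose. With scaling to total counts 11 fell and 3 rose, against 13.6% of all tested genes that fell and 40.2% that rose. Under TMM the assembly factors had a median log2 fold change of -0.343, against 0.00596 over all tested genes. In 13 of them (34.2%) all SMA libraries lay below all WT libraries, against 21.7% of all tested genes. Uqcc2, which stabilises newly made cytochrome b of complex III, had 46.5, 43.5, 56.3 and 48.7 CPM in the SMA libraries, against 118, 94.9, 96.2, 125 and 116 CPM in the WT libraries. All SMA libraries lay far below WT (log2 fold change -1.18 ± 0.11, edgeR adjusted p = 4.21e-06). Coa5, an assembly factor of complex IV, had 98.2, 108, 112 and 105 CPM in the SMA libraries, against 264, 207, 280, 221 and 324 CPM in the WT libraries (log2 fold change -1.29 ± 0.13, edgeR adjusted p = 6.62e-06). Sco2, a copper chaperone of complex IV, had 0 counts in every library. Surf1, which also serves complex IV, rose by a log2 fold change of 0.19 (edgeR adjusted p = 0.0485) with overlap between the groups. Its call was lost in 8 of the 9 single omissions, with other scaling factors (RLE and upper quartile), with no filter on low counts, in DESeq2 and with the term for Y-linked counts, at adjusted p of up to 0.21.

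Of subunits that the names above do not reach, 3 were in the table. The complex V subunit 2010107E04Rik had 206, 201, 276 and 217 CPM in the SMA libraries, against 278, 259, 251, 333 and 312 CPM in the WT libraries (log2 fold change -0.35 ± 0.12, edgeR adjusted p = 0.0259), with SMA library 3 inside the WT range. Usmg5, another complex V subunit, had a log2 fold change of -0.19, and Ndufa4, a complex IV subunit first placed in complex I, had one of 0.15. Neither passed the test, and with scaling to total counts Ndufa4 rose and 2010107E04Rik was not called. The subunits encoded by mitochondrial DNA were not analysed here.

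Cox7a1 and Cox8b are abundant in heart and brown fat as well, so markers of those cells were read beside them. The 4 cardiac markers (Myh6, Nppa, Tnni3 and Myl7) summed to 55.1 to 77.5 CPM in SMA and 24.3 to 44.0 CPM in WT, and the 3 that could be tested rose. The 5 brown adipocyte markers summed to 45.5 to 58.9 CPM in SMA and 31.9 to 178 CPM in WT, with the highest sum in WT library 5. Of them Ucp1, the uncoupling protein that defines brown fat, read 0.315 to 1.93 CPM in SMA and 11.3 to 119 CPM in WT and fell, Elovl3 and Ppara rose, and Cidea and Otop1 did not pass. The 6 white and shared adipocyte markers summed to 506 to 656 CPM in SMA and 293 to 610 CPM in WT, with Lep at 0 counts in SMA libraries 3 and 4, and 2 of them fell and 1 rose. The 3 erythroid markers in the table summed to 603 to 958 CPM in SMA and 1220 to 2040 CPM in WT, and all 3 fell. Of 7 slow fibre markers 1 rose (Atp2a2) and 6 did not pass, and their sums were 1410 to 1980 CPM in SMA and 868 to 2540 CPM in WT. With scaling to total counts these marker calls held except that of the adipocyte gene Plin1 (log2 fold change -1.41, edgeR adjusted p = 0.0757), and the muscle marker Des rose as well (log2 fold change 0.28, edgeR adjusted p = 0.00432). The part of these cell types in the subunit results was not tested.

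Neighbouring and near-identical sequence limits some counts. An exon of 13 of the 47 tested genes overlaps another annotated gene, on the opposite strand for 11 of them, and the strand setting of the counting is not given in the sources used here. Among the called genes these were Atp5f1, Cox5a and Cox6a2. For 17 of the 47 a run of 75 bases, the length of a read, also occurs in another annotated transcript, among the called genes for Atp5f1, Atp5j2, Cycs and Uqcrh.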

How the data were processed

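The 9 libraries were made from 200 ng of total RNA with a stranded mRNA kit and sequenced as paired reads of 75 bases, per the labels' protocols. The deposited table of raw counts gives a whole number for every gene in every library. A second deposited table holds a signal, the same counts after division by a size factor (0.734 to 1.23), which was checked and not used further. Per the submitters' processing notes, HTSeq 0.9.1, DESeq2 1.16.1 and the build mm10 were used, with no role stated. Neither the aligner nor the annotation nor the strand setting is given in the sources used here. Of 32594 genes 9145 had no count. No 2 replicates agreed within sampling noise (chi-square per degree of freedom 11.2 to 81.3).

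Counts were fitted in R 4.3.3 with edgeR 4.0.16 (filterByExpr, TMM factors, quasi-likelihood F test, 1 group term, Benjamini-Hochberg over 15873 genes). The standard error is the log2 fold change divided by the square root of F. CPM were computed from the counts and the TMM-scaled library sizes. Isoform ratios used two-sided exact permutation tests. Alternatives used DESeq2 1.42.0, limma 3.58.1 (voom), other scalings and filters, a replicate block and omitted libraries. The procedure was tested on simulated counts. Positions are those of GENCODE M21 on GRCm38, the assembly also called mm10. The genes given in every library were all tested members of isoform pairs, Cox7a2l, and for each complex the 2 lowest and the 1 highest adjusted p. Other lists name the 2 lowest adjusted p, and the remaining genes were named after their values were seen. The members, the lists and the tests were chosen with earlier results of these data known.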

Additional observations from a re-analysis of the deposited data

Results flagged for a closer look

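For the 26 genes given in every library and the 7 isoform ratios, the library values of both groups made 66 sets, which were checked for 1 library far from the rest of its group. Of such sets chance alone flags about 1 in 20, and 9 were flagged here. The number given is the gap between that library and the nearest other one as a share of the whole range of its group. SMA library 3 was the highest SMA library for 8 of them. These were Atp5l with 0.985 (125.2 CPM, next 89.1 CPM), Cox6b1 with 0.96 (598 CPM, next 464.3 CPM), Atp5g3 with 0.949 (1183 CPM, next 907.7 CPM) and Cox8b with 0.942 (495.4 CPM, next 357 CPM). The others were Cox4i1 with 0.928 (1070 CPM, next 869.9 CPM), Cox4i2 with 0.875 (5.507 CPM, next 2.949 CPM), Cycs with 0.871 (306.2 CPM, next 211.8 CPM) and Cox7b with 0.839 (483.8 CPM, next 400.8 CPM). SMA library 2 was the lowest SMA library for Cox8a, with 0.844 (117.2 CPM, next 129.8 CPM). SMA library 3 also took the highest share of counts for the subunit genes, at 2.857%. Without that library 27 of the 47 tested subunit genes fell and 3 rose, where 28.3% of all tested genes fell and 28.2% rose.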

How the results depend on the processing

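Against 18 subunit genes that fell and 3 that rose, scaling to total counts gave 3 and 6, and a covariate for Y-linked against Xist counts 10 and 3. The replicate block gave 11 and 3 (Atp5c1, Atp5f1, Cox7a2, Cyc1, Sdhc, Uqcr10 and Uqcrh lost, edgeR adjusted p 0.0588 to 0.132). No SMA library shares the number of WT library 5, so that library adds nothing to the group difference in the block. Leaving out each library in turn gave 11 to 27 that fell, with 3 that rose in every omission. RLE, upper-quartile factors, no filter, a stricter filter, DESeq2 and limma-voom gave 18 to 24 that fell and 3 that rose. Among all tested genes 24.6% fell with the replicate block and 21% with the covariate. The 11 and the 10 of 47 subunit genes lay near those shares. Over the single omissions 23.3 to 28.3% of all tested genes fell and 24.4 to 28.2% rose. The 11 of 47 without SMA library 1 lay near its share of 23.3%, and the 27 of 47 without SMA library 3 lay above its share of 28.3%. With total counts 13.6% of all tested genes fell, and the 3 of 47 subunit genes lay below that share. Of 38 tested assembly factors 22 fell, above the 27.2% of all tested genes. With total counts 11 of the 38 fell, which also lay above the 13.6% of all tested genes. The labels do not say whether replicate numbers pair the samples. The correlations of same-numbered deviations were 0.145, 0.0167, -0.104 and -0.0421, which cannot settle it. With the replicate block, where the smallest exact p is 0.125, the ratio differences were -0.464 for Cox7a1, -0.897 for Cox4i2, 0.865 for Cox6b2, 0.212 for Atp5g2 (exact adjusted p = 0.175 each) and -0.018 for Atp5g1. These differences equal those without WT library 5. Without SMA library 3 and WT library 5 together, the same ratios were -0.559, -1.064, 0.931, 0.242 and -0.022, the first 4 at an exact adjusted p of 0.08.

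Over single omissions the ratio differences ranged from -0.585 to -0.426 for Cox7a1, -0.981 to -0.717 for Cox4i2, 0.865 to 1.186 for Cox6b2, 0.205 to 0.286 for Atp5g2, 0.3 to 0.487 for Cox8b and -0.018 to 0.043 for Atp5g1 (with -0.011 and -0.003 also below zero), and Cox6a2 stayed between -0.317 and -0.212. Total counts turned 17 genes that were not called positive, of which those given in every library were Cox6a1 (0.119), Cox6b1 (0.121), Cox7b (0.012), Atp5g2 (0.205), Sdhd (0.191), Uqcr11 (0.162), Cox5b (0.225) and Atp5l (0.240). Among genes given in every library, the block did so for Sdhd (0.011), Cox5b (0.009) and Atp5l (0.014), the covariate for Cox5b (0.002). Upper-quartile factors turned Cox7a2l to -0.029, and omission of both libraries to -0.034. Over single omissions Atp5g2 ranged from -0.108 to 0.023, Sdhd from -0.097 to 0.009, Cox5b from -0.082 to 0.022, Atp5l from -0.146 to 0.067 and Cox7a2l from -0.064 to 0.061. The cause was not tested. All log2 values are SMA over WT. Counts under 3 per library were not detectable at this depth, and p-values with 4 against 5 libraries cannot go below 0.00794 in exact tests.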
